A study of Mus musculus with 18 samples.

Results

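Livers of mice fed N-(1-naphthyl)ethylenediamine were set against livers of mice on plain feed. The compound is a naphthalene ring that carries a short diamine side chain, best known as a colour reagent in nitrite assays, and it was given as its dihydrochloride. The comparison took the 3 arrays of animals 12, 14 and 15, which ate feed with 2000 ppm of the chemical, and the 3 arrays of animals 27, 28 and 29, which ate rodent chow alone. These were 6 of the 18 arrays of the series, and the arrays were chosen by their labels. All 12169 genes that could be measured were tested. Every animal was a female B6C3F1 mouse, a hybrid strain of rodent cancer bioassays, aged 5 weeks at the start and 18 weeks after 13 weeks of exposure, with 3 animals in each of 6 groups. The design classes N-(1-naphthyl)ethylenediamine as negative for liver tumours. The other feed chemicals were 1,5-naphthalenediamine at 2000 ppm, classed as positive, and pentachloronitrobenzene at 8187 ppm, classed as negative, and all feed animals were exposed on 7 days per week. By gavage on 5 days per week, mice received 2,3-benzofuran at 240 mg/kg, classed as positive, or corn oil alone at 5 ml/kg. The series was made to find expression markers of liver tumours in rodent bioassays. Where the word treated stands alone it refers to N-(1-naphthyl)ethylenediamine.

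The liver meets foreign amines with oxidising cytochromes P450, with conjugating enzymes and with export pumps. The aryl hydrocarbon receptor, a ligand-activated transcription factor, induces Cyp1 genes, whereas NRF2, which senses oxidants and electrophiles, induces glutathione and quinone enzymes. Liver genes also follow the circadian clock and feeding, in which the activator Arntl (also called Bmal1) opposes the Per, Cry and Rev-erb repressors, and they follow sex through the pulse pattern of growth hormone.

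RNA quality separated the compared groups. The RNA integrity number was 7.7, 8.1 and 7.7 in treated livers, against 8.8, 8.8 and 9.1 in feed controls. The difference between the 3' and 5' beta-actin probe sets, which grows as RNA shortens, was 1.85, 1.45 and 1.50 log2 units in treated livers, against 0.90, 0.93 and 0.99 in feed controls. The 18S ribosomal RNA probe set read 10.35, 11.56 and 6.97 in treated livers, against 6.23, 6.67 and 6.27 in feed controls, and treated animals 12 and 14 were among the 5 highest of the series. None of these measures overlapped between the groups. Low quality was not confined to them, since 1,5-naphthalenediamine animal 4 had a beta-actin difference of 1.75 and an 18S signal of 9.97, and corn oil control 24 an integrity number of 7.4. The integrity number and the beta-actin difference were therefore each entered in the model in turn. Since neither measure overlapped between the compared groups, these fits cannot tell RNA quality and exposure apart, for lost or for kept calls. Some calls were lost although the change did not shrink. The part of RNA quality in a result was not tested. Arrays correlated at 0.9932 to 0.9938 within the treated group, at 0.9901 to 0.9931 within the feed controls and at 0.9819 to 0.9894 between them. The labels name separate animals, and 3 arrays per group limit the precision.

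**Figure D1:**
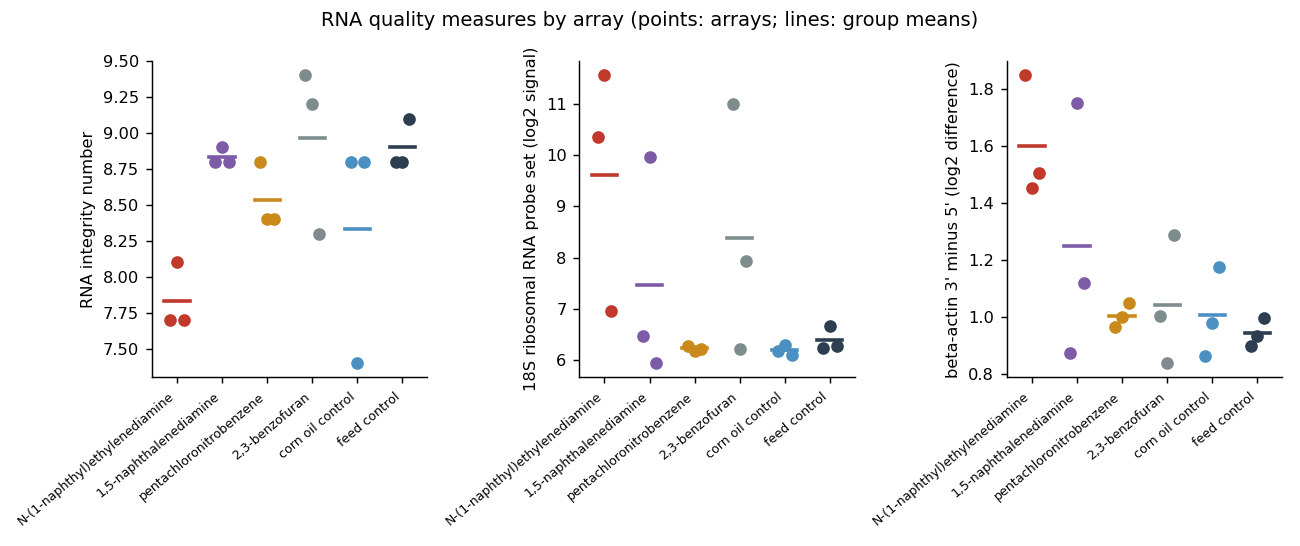
RNA integrity number, log2 signal of the 18S ribosomal RNA probe set and the log2 difference between the 3' and 5' beta-actin probe sets on all 18 arrays, by group, with points for arrays and lines for group means. The 3 N-(1-naphthyl)ethylenediamine arrays lie at integrity numbers of 7.7 to 8.1, against 8.8 to 9.1 in the feed control, and above the feed control in the other measures.

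Of 12169 genes, 964 (7.92%) rose and 459 (3.77%) fell with N-(1-naphthyl)ethylenediamine. A gene was called when its Benjamini-Hochberg adjusted p in limma was under 0.05 on the deposited log2 values and again after quantile normalization, with the same sign in both fits and relative to the median gene. The deposited values alone gave 3004 higher and 532 lower, and the median gene lay 0.15 higher in treated arrays on that scale and 0.03 higher after quantile normalization. Changes are given as treated minus feed control on the log2 scale, less that median of 0.15, with the standard error of the model (n = 3 per group). Adjusted p-values belong to the difference on the deposited scale, before the median was taken off. The 3 treated arrays all lay above the 3 feed controls in 3773 genes (31%) and all below them in 878 (7.22%). At least 2-fold changes were few, with 49 of the called genes higher and 57 lower. In whole tissue, fewer cells of a type and less RNA per cell cannot be told apart.

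The calls depended on single arrays and on whether a quality measure was in the model. Of the 1423 called genes, 396 kept their call when each of the 6 arrays was left out in turn. With the integrity number as a covariate 91 kept it, with the beta-actin difference 24, with the 18S signal 324, and without the 5 arrays highest in 18S signal 110. That last fit had animal 15 as the only treated array. A set of 20 genes kept the call with the integrity number and with the beta-actin difference, and these 20 also kept it in every leave-one-out fit. The genes named in the text include 136 of the called genes, among them these 20. Of the others, Apoa4, Ccne1, Csnk1d, Cyp3a44, Fmo2, Gprin3, Insig2 and Serpina12 kept the call with the integrity number only, and Coq10b with the beta-actin difference only. The remaining called genes named in the text lost the call in each of these fits, which is not repeated at every gene. The median change also followed signal level. It was -0.20 in the 2630 genes with a mean under 5 and 0.11 in the 2055 genes with a mean between 7 and 8. Group means under 4.25, the lowest median of any array, are not shown to lie above background, and changes that involve such a mean are given as "at least". The median of 0.15 was taken off these bounds for rises but not for falls.

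**Figure D2:**
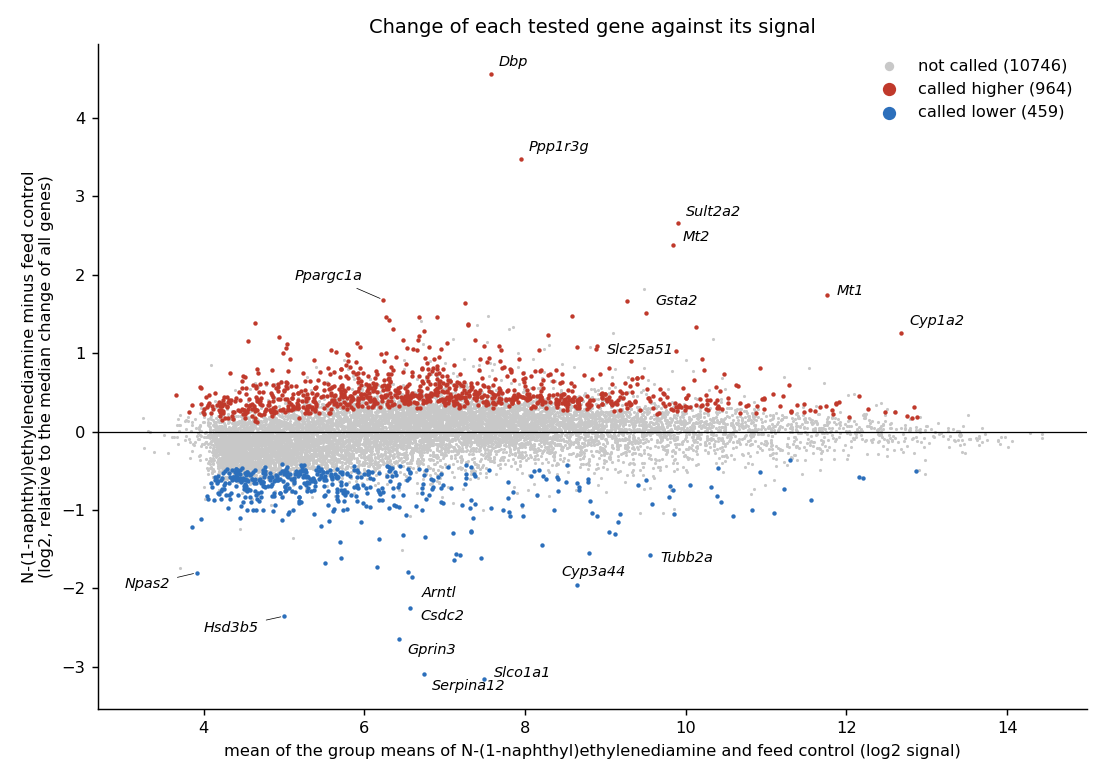
Change of each of the 12169 tested genes (N-(1-naphthyl)ethylenediamine minus feed control, log2, relative to the median gene) against the mean log2 signal of the compared groups, with 964 genes called higher in red and 459 called lower in blue. Dbp and Ppp1r3g stand highest, Slco1a1 and Serpina12 lowest, and most calls are smaller than 1 log2 unit.

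Cyp1a2, the liver cytochrome P450 that oxidises aromatic amines, rose in every treated liver. It read 13.40, 13.34 and 13.43 in treated livers, against 11.93, 11.80 and 12.20 in feed controls. The treated arrays were nearly equal and stood clear of all controls. The change was 1.26 ± 0.13, or 2.39-fold (adjusted p = 1.72e-05), and it was 1.20 with the integrity number in the model (adjusted p = 0.0204) and 0.89 with the beta-actin difference (adjusted p = 0.0312). Tiparp, an ADP-ribosyltransferase that feeds back on the aryl hydrocarbon receptor, read 6.76, 6.66 and 6.72 in treated livers, against 5.98, 6.13 and 5.56 in feed controls. Its rise of 0.67 ± 0.18 (adjusted p = 0.00423) passed in 3 of 6 leave-one-out fits and in neither fit with a quality covariate. Cyp1a1, the most inducible member of the family and chosen after its values were seen, read 3.69, 3.91 and 4.16 in treated livers, against 3.47, 3.87 and 3.95 in feed controls. Those values are under 4.25 in both groups and so are not shown to exceed background. Of the 7 aryl hydrocarbon receptor targets measured 2 rose and 0 fell, with a median change of 0.30, and the other 5 did not pass. Of all tested genes 7.92% rose and 3.77% fell.

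Of 34 NRF2 targets measured 6 rose and 0 fell, beside 7.92% and 3.77% of all tested genes, and their median change was 0.15. Gsta2, an alpha class glutathione S-transferase, read 10.52, 10.00 and 10.48 in treated livers, against 9.46, 7.99 and 8.57 in feed controls. No arrays overlapped, and the change was 1.51 ± 0.36 (adjusted p = 0.00374), although the call was lost in 2 of 6 leave-one-out fits (adjusted p up to 0.0573). Abcc3, a pump that exports glucuronides into blood, read 11.02, 10.93 and 11.09 in treated livers, against 10.37, 10.37 and 10.11 in feed controls. This pump rose by 0.58 ± 0.10 (adjusted p = 0.000562) and kept the call in all leave-one-out fits and without the arrays highest in 18S signal. Abcc4, a second basolateral pump, read 6.02, 4.39 and 5.23 in treated livers, against 4.03, 3.91 and 3.77 in feed controls. The feed control mean is under 4.25, so the rise was at least 0.81 (at least 1.75-fold, adjusted p = 0.00428). The remaining calls were Tkt, a transketolase of the pentose phosphate pathway, at 0.36 ± 0.11, the carboxylesterase gene Ces2g at 0.41 ± 0.11 and the glucuronosyltransferase gene Ugt2b35 at 0.40 ± 0.14. None of the 6 kept its call with either quality covariate. With the integrity number and then the beta-actin difference in the model, the changes were 1.75 and 1.05 for Gsta2, 0.46 and 0.47 for Abcc3, 1.04 and 0.62 for Abcc4, and 0.45 and 0.33 for Ces2g. Several classical members did not pass and were chosen after their values were seen. The quinone reductase gene Nqo1 had a change of 0.60 ± 0.23, Gclc, the catalytic subunit of glutathione synthesis, -0.61 ± 0.20 and Ugdh, which supplies UDP-glucuronate, 0.08 ± 0.14.

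Other genes of foreign compound handling moved in small numbers, to be read beside 7.92% of all tested genes higher and 3.77% lower. Glutathione S-transferases rose in 2 of 20 cases, with the theta class gene Gstt2 at 0.66 ± 0.16 beside Gsta2. Among 29 conjugation enzymes 3 rose and 0 fell. These were Ugt2b35, the flavin monooxygenase gene Fmo2 at 1.37 ± 0.21 and the hydroxysteroid sulfotransferase gene Sult2a2. In Sult2a2 the values were 12.14, 10.65 and 11.12 in treated livers, against 10.31, 7.28 and 7.90 in feed controls, so feed control 27 came close to the lowest treated array. Its change was 2.66 ± 0.85 (adjusted p = 0.0211) and passed in 1 of 6 leave-one-out fits. Of the 19 cytochromes P450 and receptors of the CAR and PXR pathway, 2 rose and 1 fell. Nr1i3, which encodes the receptor CAR itself, rose by 0.43 ± 0.11, and Cyp2b13, a female-biased member, by 0.81 ± 0.23, whereas Cyp3a44 fell as given with the sex-biased genes. Cyp2b10, the usual marker of CAR activity and chosen after its values were seen, read 9.93, 8.60 and 9.73 in treated livers, against 8.82, 7.25 and 8.48 in feed controls, overlapped between groups and did not pass. Uptake transporters rose in 3 of 16 cases, with Slc38a2, an amino acid carrier, at 0.78 ± 0.15, Slc22a5, the carnitine carrier, at 0.60 ± 0.17 and Slc15a4 at 0.82 ± 0.23. Slco1a1 and Slc22a30 fell. Among 13 ABC exporters, Abcc3 and Abcc4 alone rose and none fell.

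1,5-naphthalenediamine carries an amine on each ring of naphthalene and was given at the same dose for the same time, so the naphthalene amines were compared directly. With N-(1-naphthyl)ethylenediamine, 235 genes (1.93%) were higher and 384 (3.16%) lower than with 1,5-naphthalenediamine. This was 1 of 5 contrasts tested, each with its p-values adjusted over all genes. Of the 56 genes named in the text that differed in it, 19 kept that call with the integrity number in the model and 43 with the beta-actin difference. Of the NRF2 targets 26 of 34 were lower with N-(1-naphthyl)ethylenediamine and none was higher, and of the glutathione S-transferases 10 of 20 were lower. Ugdh read 9.76, 9.36 and 9.74 with N-(1-naphthyl)ethylenediamine and 11.40, 11.75 and 12.10 with 1,5-naphthalenediamine, a difference of -2.13 (adjusted p = 5.21e-08). Aox1, an aldehyde oxidase that oxidises aromatic nitrogen compounds, read 8.55, 8.36 and 8.41 with N-(1-naphthyl)ethylenediamine and 10.40, 10.64 and 10.78 with 1,5-naphthalenediamine. That difference of -2.17 (adjusted p = 1.55e-08) was not accompanied by a change from the feed control, whose arrays read 8.54, 8.67 and 8.11. Cyp1a1 read 5.88, 7.46 and 7.63 with 1,5-naphthalenediamine, above every N-(1-naphthyl)ethylenediamine array. It was called lower with N-(1-naphthyl)ethylenediamine (adjusted p = 3.96e-06), where it read under 4.25. Abcc4 differed by -2.69, Gstm3, a mu class transferase, by -2.31, Ephx1, microsomal epoxide hydrolase, by -1.55 and Gsta2 by -1.74. Aox1, Gstm3 and Ephx1 were chosen after their values were seen. For Cyp1a2 no difference was found between the naphthalene amines. The arrays read 13.24, 13.81 and 13.57 with 1,5-naphthalenediamine, and the difference of -0.15 had an interval of 2 standard errors from -0.41 to 0.10.

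**Figure D3:**
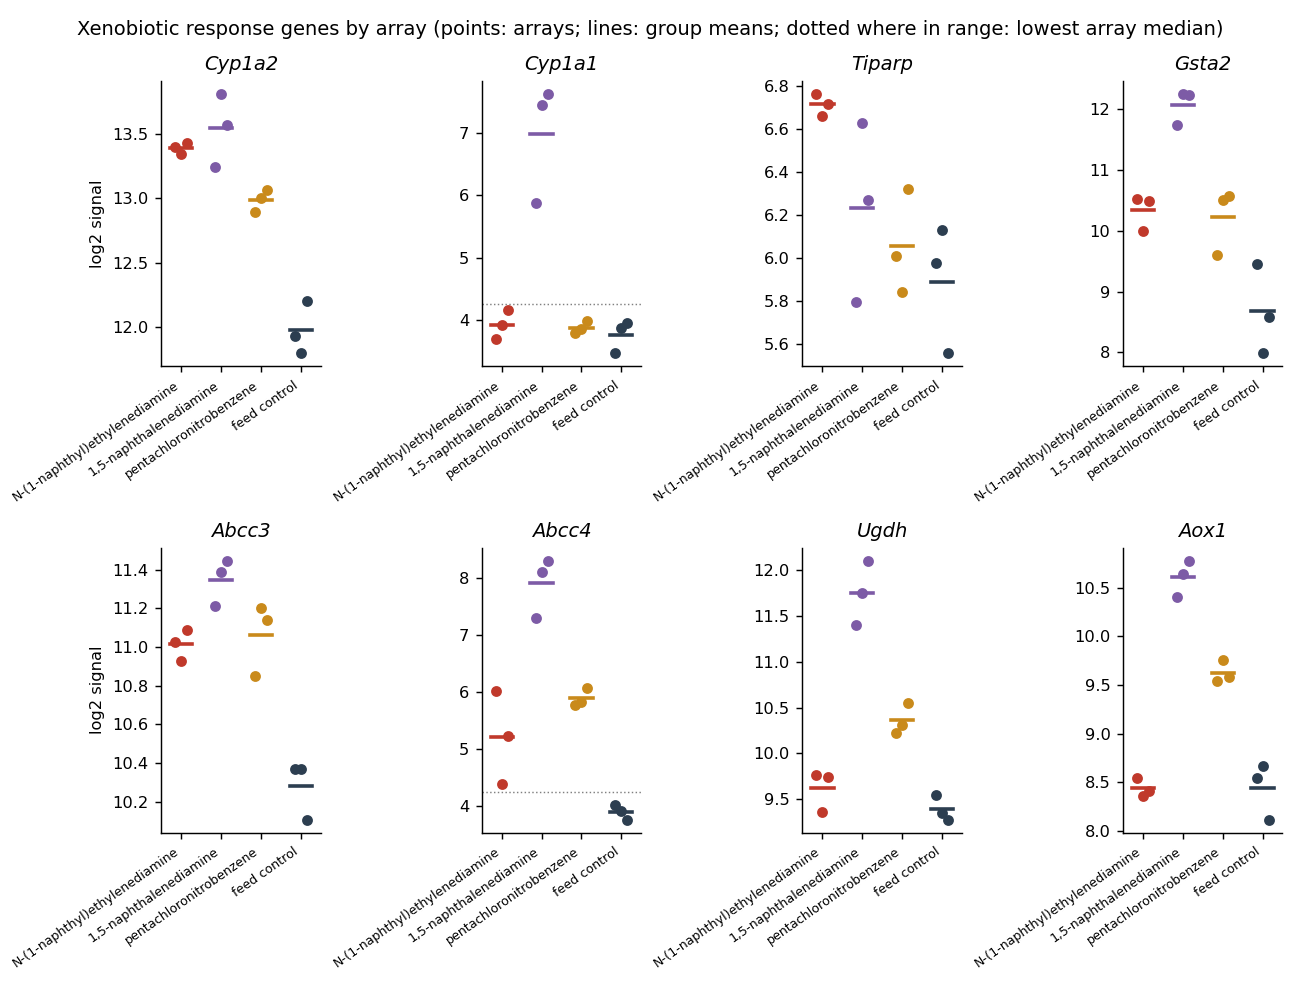
Log2 signal of 8 genes of the response to foreign compounds in N-(1-naphthyl)ethylenediamine, 1,5-naphthalenediamine, pentachloronitrobenzene and feed control livers, with points for arrays, lines for group means and, where in range, a dotted line at the lowest array median. Cyp1a2 is at similar levels with both naphthalene amines, whereas Cyp1a1, Abcc4, Ugdh and Aox1 are high with 1,5-naphthalenediamine and lower with N-(1-naphthyl)ethylenediamine, where Abcc4 still lies above the feed control.

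Clock genes included the largest rise of the comparison, and members moved in both directions. Of 16 core clock genes 3 rose and 3 fell, and of 19 clock output genes 5 rose and 3 fell. The shares of all tested genes were 7.92% and 3.77%. Arntl, the activator that pairs with Clock, read 5.71, 5.54 and 5.96 in treated livers, against 7.99, 7.48 and 6.86 in feed controls. The groups stood clear of each other, and the fall was -1.86 ± 0.41 (adjusted p = 0.00657). It was -1.51 with the integrity number in the model (adjusted p = 0.17) and -1.14 with the beta-actin difference (adjusted p = 0.341). Npas2, which can replace Clock, read 2.99, 3.32 and 2.97 in treated livers, against 5.04, 5.00 and 4.18 in feed controls. Its treated mean is under 4.25, so the fall was at least 0.49 (bound of -0.49, adjusted p = 0.00353). Per1, a repressor of the feedback loop, read 6.93, 6.76 and 7.59 in treated livers, against 5.10, 5.43 and 6.03 in feed controls, and it rose by 1.42 ± 0.28 (adjusted p = 0.00167). Its relative Per3 rose by 1.20 ± 0.29. Per3 read 5.37, 5.91 and 5.57 in treated livers, against 4.38, 4.09 and 4.30 in feed controls, and 4 of its 5 probe sets passed in that direction. Ciart, a further repressor of the loop, rose by 0.58 ± 0.23 and read 4.57, 4.72 and 5.75 in treated livers, against 4.19, 4.28 and 4.36 in feed controls. Csnk1d, a kinase of the Per proteins, fell by 0.75 on the probe set used, but only 2 of its 5 probe sets lay in that direction and the median over them was 0.0455.

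Among the outputs Dbp, a transcription factor that binds D-boxes, had the largest change of any gene. It read 9.45, 10.10 and 10.23 in treated livers, against 4.00, 4.11 and 7.53 in feed controls. Feed control 29 lay far above the other feed controls and still below every treated array. The other feed controls read under 4.25, the level not shown to exceed background, so the size of the rise is uncertain. The rise of 4.56 ± 1.31 (23.6-fold, adjusted p = 0.0142) passed in only 1 of 6 leave-one-out fits. Tef, a relative of Dbp, read 9.32, 9.25 and 9.61 in treated livers, against 7.47, 7.46 and 8.38 in feed controls, a rise of 1.47 ± 0.39 that also passed in 1 of 6. The ubiquitin protease gene Usp2 rose by 0.90 ± 0.25, Upp2, uridine phosphorylase, by 1.33 ± 0.39 and Coq10b, a coenzyme Q binding protein, by 0.94 ± 0.19. Coq10b read 7.44, 7.86 and 7.13 in treated livers, against 6.56, 6.45 and 6.11 in feed controls, kept its call in all leave-one-out fits and had a change of 1.35 with the beta-actin difference in the model (adjusted p = 0.0324). With the integrity number that change was 1.06 and did not pass (adjusted p = 0.0544). Elovl3, a fatty acid elongase, fell by 1.73, Avpr1a, the vasopressin receptor, by 0.98 and Insig2, a brake on sterol regulatory proteins, by 1.01 (standard errors 0.37, 0.22 and 0.14). Insig2 read 10.30, 10.33 and 10.57 in treated livers, against 11.38, 11.38 and 11.003 in feed controls, and its change was -0.89 with the integrity number in the model (adjusted p = 0.0432). With the beta-actin difference it was -0.64 and did not pass (adjusted p = 0.127).

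The remaining core and output members did not pass. Nr1d2, a Rev-erb repressor, read 9.70, 9.85 and 9.87 in treated livers, against 8.02, 8.16 and 8.98 in feed controls (change 1.26 ± 0.45). For Nr1d1, its partner, the values were 8.06, 8.09 and 8.19 in treated livers, against 7.24, 7.01 and 7.64 in feed controls (0.66 ± 0.61). Cry1 had a change of -1.25 ± 0.36, the size of which is uncertain because its treated mean is under 4.25. Cry2 had a change of 0.67 ± 0.22, Clock of -0.51 ± 0.23 and Nfil3, a repressor of D-box genes, of -0.96 ± 0.47. Per2 had 0.03 ± 0.17, Bhlhe40 0.57 ± 0.47, Rora 0.10 ± 0.12 and Csnk1e 0.37 ± 0.17. Among the outputs Rgs16, a regulator of G protein signalling, had 1.82 ± 0.70 and Noct, a rhythmic phosphatase, 1.00 ± 0.34. Thrsp had 0.21 ± 0.32, Hlf 0.20 ± 0.17, Wee1 0.13 ± 0.14, Nampt 0.44 ± 0.14, Tspan4 0.40 ± 0.16, Tars -0.48 ± 0.12, Leo1 -0.42 ± 0.15, Cys1 -0.42 ± 0.13 and Lonrf3 -0.70 ± 0.43.

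Upstream sequences of 4 called clock genes are shown because they hold the letters that clock factors bind. Per1, also called, holds an E-box 166 bases before a start, and its sequence is not shown. Capitals mark each match to the E-box CACGTG, the D-box TTATGTAA or the dioxin element core GCGTG, on either strand, and all are from RefSeq on build GRCm38.p6, 5′ to 3′ on the strand of the gene. A match describes these letters only.
Ciart, minus strand, chr3:95882314-95882369, E-box: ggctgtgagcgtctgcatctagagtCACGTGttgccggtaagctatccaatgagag
Ciart, minus strand, chr3:95882256-95882311, E-boxes: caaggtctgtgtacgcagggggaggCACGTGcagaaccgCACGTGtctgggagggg
Per3, minus strand, chr4:151044838-151044895, D-box: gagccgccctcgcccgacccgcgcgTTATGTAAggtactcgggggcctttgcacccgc
Per3, minus strand, chr4:151044791-151044848, D-box: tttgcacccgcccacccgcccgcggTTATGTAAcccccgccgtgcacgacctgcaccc
Tef, plus strand, chr15:81802521-81802576, E-box: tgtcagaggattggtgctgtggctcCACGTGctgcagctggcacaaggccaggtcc
Tef, plus strand, chr15:81811251-81811306, E-box before a second start: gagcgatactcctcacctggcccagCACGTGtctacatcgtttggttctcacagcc
Coq10b, plus strand, chr1:55052583-55052640, D-box read on the other strand: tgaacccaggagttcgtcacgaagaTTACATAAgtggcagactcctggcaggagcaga
Coq10b, plus strand, chr1:55052667-55052722, E-box and a dioxin element core: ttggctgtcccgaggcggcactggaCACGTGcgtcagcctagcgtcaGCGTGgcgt

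Over the 250 bases before each start, the E-box was in 6.02% of all 32851 promoters of the table and the D-box in 0.82%. The shares that follow count genes, which can have several promoters. Among tested genes with a promoter there, 9.94% held an E-box, against 12.58% of the 795 genes that rose and 8.02% of the 349 that fell. The D-box was in 0.62% of tested genes, 1.01% of those that rose and 0.29% of those that fell. The core of the ROR element, TAGGTCA, was in 2.22% of tested genes, 1.76% of those that rose and 2.29% of those that fell. For the response to foreign compounds, the dioxin element core was in 53.21% of genes that rose and 44.99% of those that fell, against 47.95% of tested genes. The antioxidant element TGACNNNGC was in 12.83% of genes that rose and 14.33% of those that fell, against 13.99% of tested genes. No D-box or E-box was in the windows of Dbp, Arntl, Npas2, Usp2, Upp2, Avpr1a or Insig2.

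Clock values also spread within the groups, and the corn oil control held arrays at treated levels. Dbp read 5.40, 10.08 and 10.33 in corn oil controls 22, 24 and 25, and Arntl read 7.57, 5.69 and 5.27 there. In both genes corn oil controls 24 and 25 lay within or past the treated range and corn oil control 22 near the feed controls. An index of the mean of Dbp, Per3, Nr1d2 and Tef less the mean of Arntl, Npas2, Clock and Nfil3 was 2.54, 2.93 and 3.21 in treated livers, -0.62, 2.92 and 3.17 in corn oil controls, and -1.42, -1.12 and 1.00 in feed controls. Against the corn oil control 1 of the core genes was lower (Csnk1d) and 1 of the outputs higher (Coq10b). In that contrast 5% of all tested genes were higher and 2.1% lower. With the index as a covariate 440 of the 1423 called genes kept their call. Time of tissue collection was not analysed here, so clock phase and exposure cannot be told apart in the index genes.

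**Figure D4:**
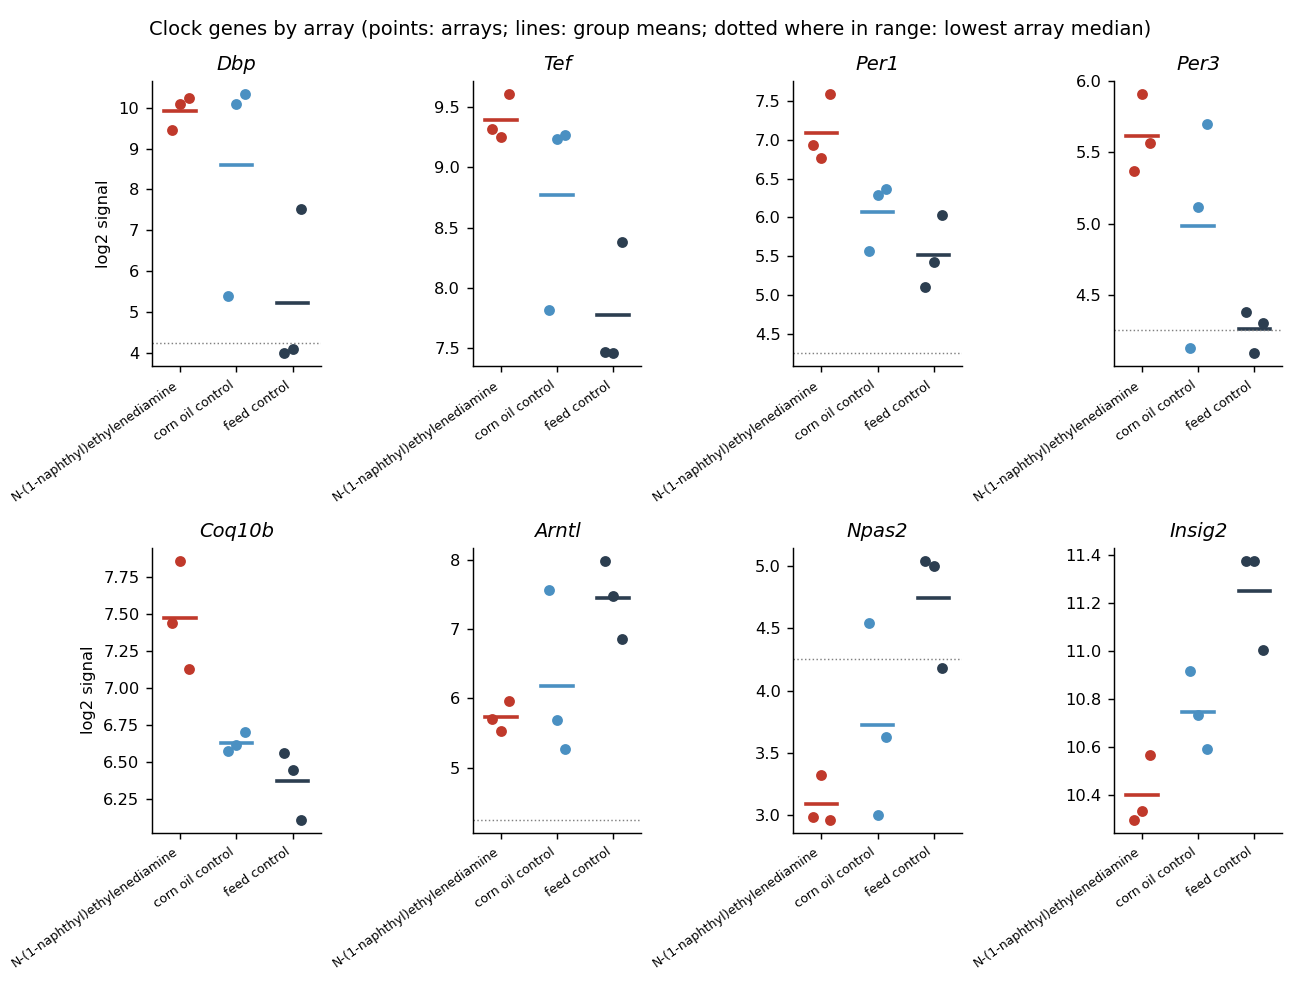
Log2 signal of 8 clock genes in N-(1-naphthyl)ethylenediamine, corn oil control and feed control livers, with points for arrays, lines for group means and, where in range, a dotted line at the lowest array median. Dbp, Tef, Per1 and Per3 are high and Arntl and Npas2 low in all 3 N-(1-naphthyl)ethylenediamine arrays, and the corn oil controls are split between these levels and those of the feed control.

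Genes of glucose storage gave a further large change. Ppp1r3g, a subunit that brings protein phosphatase to glycogen after feeding, read 9.66, 10.45 and 9.19 in treated livers, against 5.15, 6.64 and 6.62 in feed controls. Every treated array was more than 2 log2 units above every feed control. Its rise of 3.48 ± 0.67 (11.1-fold, adjusted p = 0.00186) passed in all leave-one-out fits, but with the integrity number in the model the change was 2.49 (adjusted p = 0.143) and with the beta-actin difference 2.17 (adjusted p = 0.276). Ppp1r3c, another glycogen targeting subunit, read 8.46, 8.75 and 8.76 in treated livers, against 10.08, 9.61 and 9.28 in feed controls, and fell by 1.15 (standard error 0.25). Stbd1, which tethers glycogen to membranes, rose by 1.06 ± 0.26. The other 13 of 16 glycogen genes did not pass. Gluconeogenesis and fasting genes rose in 4 of 19 cases and fell in 1, whereas 7.92% of all tested genes rose and 3.77% fell. Ppargc1a, a coactivator of fasting genes, read 7.27, 7.44 and 6.75 in treated livers, against 4.72, 5.36 and 5.89 in feed controls, and rose by 1.68 ± 0.36 (adjusted p = 0.00245). Foxo1, a transcription factor restrained by insulin, rose by 0.71 ± 0.14, Pcx, pyruvate carboxylase, by 0.36 ± 0.10 and Igfbp2 by 0.45 ± 0.13. Fgf21, a fasting hormone of the liver, fell by 1.37 (standard error 0.38). The rate-limiting enzymes did not pass and were chosen after their values were seen, with Pck1 at 0.28 ± 0.16 and G6pc at 0.18 ± 0.26.

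Glycolysis genes rose in 2 of 13 cases and fell in 1, with Pfkl, liver phosphofructokinase, at 0.44 ± 0.12, Hk2, a hexokinase, at least 0.19 and Pfkfb3 at -0.62 ± 0.12. The direction of Pfkfb3 turned on its other probe set (0.83), and Hk2 lay close to background in both groups. Counts of this and the next list stand beside 7.92% of all tested genes higher and 3.77% lower. Glucocorticoid-responsive genes rose in 2 of 16 cases, with the growth restraint gene Ddit4 at 0.81 ± 0.29 and the transcription factor Cebpd at 0.75 ± 0.23, and Cebpd overlapped between groups. Fkbp5 and Tat, common markers of glucocorticoid action chosen after their values were seen, had changes of 0.88 ± 0.27 and 0.17 ± 0.14 that did not pass. Txnip, a glucose-responsive inhibitor of glucose uptake, read 10.66, 10.48 and 10.28 in treated livers, against 9.28, 9.67 and 8.92 in feed controls, and rose by 1.03 ± 0.23 (adjusted p = 0.00239). None of the glycolysis or glucocorticoid calls held with either quality covariate. With the integrity number and then the beta-actin difference in the model, the changes were 0.82 and 1.26 for Ddit4 and 0.58 and 0.85 for Cebpd.

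Lipid genes moved less, and their counts stand beside 7.92% of all tested genes higher and 3.77% lower. Counts at an unadjusted p under 0.05 use the deposited values alone. On that scale 3004 of all 12169 genes were higher and 532 lower even at an adjusted p under 0.05 in limma. Among 19 fatty acid synthesis genes Acaca, acetyl-CoA carboxylase, rose by 0.58 ± 0.13 on the brighter of 2 probe sets, the other of which gave -0.64, and 18 did not pass. Among 27 genes of fatty acid oxidation and PPAR-alpha, 2 rose. Acot3, a peroxisomal thioesterase, read 9.91, 10.06 and 10.55 in treated livers, against 9.31, 8.11 and 7.64 in feed controls, and rose by 1.67 ± 0.30 (adjusted p = 0.00121). The change was 1.56 with the integrity number in the model (adjusted p = 0.0564) and 1.94 with the beta-actin difference (adjusted p = 0.0523). Cd36, a fatty acid transporter, rose by 1.17 ± 0.31 with overlapping arrays. Of the cholesterol synthesis genes 0 of 20 passed in limma (6 at an unadjusted p under 0.05), with a median change of -0.03, and Hmgcs1 and Sc5d, the brightest members, had -0.24 ± 0.24 and -0.30 ± 0.12. Bile acid genes rose in 1 of 22 cases and fell in 1, with Klb, the co-receptor of the gut hormone that restrains bile acid synthesis, at 0.66 ± 0.14 and Cyp7b1, an oxysterol hydroxylase, at -1.05 ± 0.18. Cyp7a1, the rate-limiting enzyme of bile acid synthesis and chosen after its values were seen, read 8.87, 7.80 and 7.80 in treated livers, against 7.71, 5.69 and 6.54 in feed controls and did not pass (1.35 ± 0.54). Apolipoprotein and lipoprotein genes rose in 1 of 25 cases and fell in 1. Lrp1, a remnant receptor, rose by 0.34 ± 0.11. Apoa4, an apolipoprotein of triglyceride export, read 9.87, 10.15 and 10.16 in treated livers, against 11.01, 10.86 and 10.56 in feed controls, fell by 0.90 (standard error 0.15) and kept its call with the integrity number in the model (adjusted p = 0.0453). With the beta-actin difference the change was -0.99 and did not pass (adjusted p = 0.0775).

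Of 17 male-biased liver genes 5 fell and 0 rose, with a median change of -0.38, and all 5 kept their call in every leave-one-out fit. Of all tested genes 3.77% fell and 7.92% rose. Serpina12, the adipokine vaspin, read 4.69, 5.87 and 5.25 in treated livers, against 8.28, 8.54 and 7.82 in feed controls. The groups were nearly 2 log2 units apart at their closest. The fall was -3.10 ± 0.38 (8.57-fold lower, adjusted p = 0.000218), and it was -2.70 with the integrity number in the model (adjusted p = 0.0236) and -2.39 with the beta-actin difference (adjusted p = 0.0534). Slco1a1, an organic anion uptake transporter, read 4.54, 7.83 and 5.61 in treated livers, against 9.08, 9.19 and 8.70 in feed controls, and animal 14 stood far above the other treated arrays. It fell by 3.15 (standard error 0.59, adjusted p = 0.00252). Hsd3b5, a steroid dehydrogenase of male liver, read 3.76, 4.13 and 3.82 in treated livers, against 6.12, 7.11 and 5.08 in feed controls. This was a fall of at least 3.61-fold, since the treated mean is under 4.25. Cyp7b1 and Elovl3, already given, are the other members. Slco1a1 read 8.88, 7.80 and 8.33 and Serpina12 7.55, 7.04 and 6.94 in corn oil controls. Corn oil control 24 and treated animal 14 overlapped in Slco1a1, and treated minus corn oil control was -2.45 for Slco1a1 (adjusted p = 0.0183) and -2.01 for Serpina12 (adjusted p = 0.00637). Of the 17 male-biased genes 1 was higher and 2 were lower than in the corn oil control, beside 5% and 2.1% of all tested genes.

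Female-biased genes rose in 5 of 18 cases and fell in 1, beside 7.92% and 3.77% of all tested genes. Those that rose were Sult2a2, Cyp2b13, Fmo2 and Acot3, given above, and Trim24, a nuclear receptor co-factor, at 0.71 ± 0.19. Cyp3a44, a female-biased cytochrome P450, read 8.14, 8.11 and 8.06 in treated livers, against 10.20, 9.24 and 9.05 in feed controls. The treated arrays were nearly equal, and the fall of -1.55 ± 0.27 (adjusted p = 0.00252) was -1.97 with the integrity number in the model (adjusted p = 0.0204) and -1.46 with the beta-actin difference (adjusted p = 0.108). Against the corn oil control 0 of the 18 were higher and 4 lower, beside 5% and 2.1% of all tested genes. Acot3 differed from the corn oil control by 0.28 (adjusted p = 0.4). In the growth hormone axis 3 of 20 genes rose, with Insr, the insulin receptor, at 0.49 ± 0.13, Igfbp4 at 0.32 ± 0.09 and Igfbp2 as above. Igf1 and Socs2, direct targets of growth hormone chosen after their values were seen, had changes of -0.35 ± 0.14 and 1.48 ± 0.60 and did not pass.

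Metallothionein and zinc genes rose in 4 of 11 cases and fell in 1, beside 7.92% and 3.77% of all tested genes. Mt1, a zinc and cadmium binding protein, read 13.05, 11.97 and 13.08 in treated livers, against 10.12, 11.94 and 10.37 in feed controls, so animal 14 and feed control 28 nearly met. For Mt2 the values were 11.90, 9.49 and 11.92 in treated livers, against 7.63, 9.19 and 8.90 in feed controls. Mt1 rose by 1.74 ± 0.52 and Mt2 by 2.38 ± 0.68, each in only 2 of 6 leave-one-out fits. The zinc importers Slc39a14 and Slc39a4 rose by 0.60 ± 0.15 and 0.41 ± 0.11, although the median over the 4 probe sets of Slc39a14 was -0.17, and Slc30a10, a manganese exporter, fell by 0.85. Iron and heme genes rose in 1 of 23 cases (Urod, of heme synthesis, 0.28 ± 0.09) and fell in 1 (Slc11a2, an iron importer, -0.87 ± 0.19). Hamp, the iron hormone hepcidin, chosen after its values were seen, had -0.11 ± 0.13.

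Stress and damage lists are read beside the shares of all tested genes, 7.92% higher and 3.77% lower. Targets of p53 rose in 2 of 20 cases, the kinase gene Plk3 at 1.28 ± 0.27 and Zmat3 at 0.33 ± 0.15. Cdkn1a, the p53 target that halts the cell cycle and chosen after its values were seen, read 5.64, 5.03 and 6.70 in treated livers, against 6.28, 8.26 and 6.90 in feed controls and did not pass. It was lower than with 1,5-naphthalenediamine by 2.52 (adjusted p = 0.00854). Cell cycle genes rose in 2 of 23 cases, Cdk6 at 0.89 ± 0.16 and Myc at 0.78 ± 0.28, and fell in 2, Ccne1, cyclin E1, at -0.99 ± 0.12 and Plk1, a mitotic kinase, at -0.58 ± 0.14. Ccne1 read 5.01, 5.29 and 5.29 in treated livers, against 6.12, 5.77 and 6.21 in feed controls. It kept its call with the integrity number in the model (adjusted p = 0.0251) but not with the beta-actin difference (adjusted p = 0.0657). Endoplasmic reticulum chaperones fell in 2 of 20 cases, with a median change of -0.31, Hspa5, the main chaperone of that compartment, at -0.59 ± 0.16 and Sdf2l1 at -0.77 ± 0.19. Hspb1, a small heat shock protein, fell by 1.00, alone among 19 heat shock genes, and read 7.70, 8.16 and 7.95 in treated livers, against 8.78, 8.83 and 8.74 in feed controls. Amino acid stress genes under ATF4 rose in 2 of 22 cases, the amino acid carrier Slc3a2 at 0.42 ± 0.11 and the transcription factor Cebpb at 0.92 ± 0.21, and fell in 1 (Fgf21). Among 19 immediate early genes Myc and Ier3 rose, Ier3 by at least 0.41. Of 16 fetal and tumour-associated liver genes 2 fell, Tff3 at -0.70 ± 0.13 and Sox9, a duct cell transcription factor, at -0.69 ± 0.15, and none rose.

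Acute phase genes rose in 2 of 26 cases (Mt2 and Cebpd), against 7.92% of all tested genes, and complement and coagulation genes in 1 of 36, Proc, the anticoagulant protein C, at 0.19 ± 0.07. Xaf1, an interferon-induced promoter of cell death, fell by 0.74 (standard error 0.16) and was the only 1 of 29 interferon genes to pass. Urea cycle and amino acid catabolism genes rose in 1 of 30 cases (Ftcd, of histidine breakdown, 0.25 ± 0.09), respiratory chain genes in 1 of 29 (Ndufs3, 0.24 ± 0.08), and proteasome genes in 0 of 30 in limma (10 at an unadjusted p under 0.05), with Psma3 at 0.03 ± 0.08 and Psmd11 at -0.16 ± 0.09. The unadjusted proteasome count is on deposited values alone, where 3004 of all 12169 genes were higher and 532 lower even after adjustment. Among 20 genes of pericentral hepatocytes, Cyp1a2 and Nr1i3 rose and Avpr1a fell. Of 22 genes for ribosomal proteins 7 rose and 0 fell, and the median change was 0.15. Rps6 rose by 0.76 ± 0.15, Rpl35 by 0.35 ± 0.09 on all 5 of its probe sets, Rps15 by 0.33 ± 0.09, Rplp2 by 0.27 ± 0.09 and Rpl38 by 0.25 ± 0.08. None of the 7 kept its call with the integrity number or the beta-actin difference in the model.

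**Figure D5:**
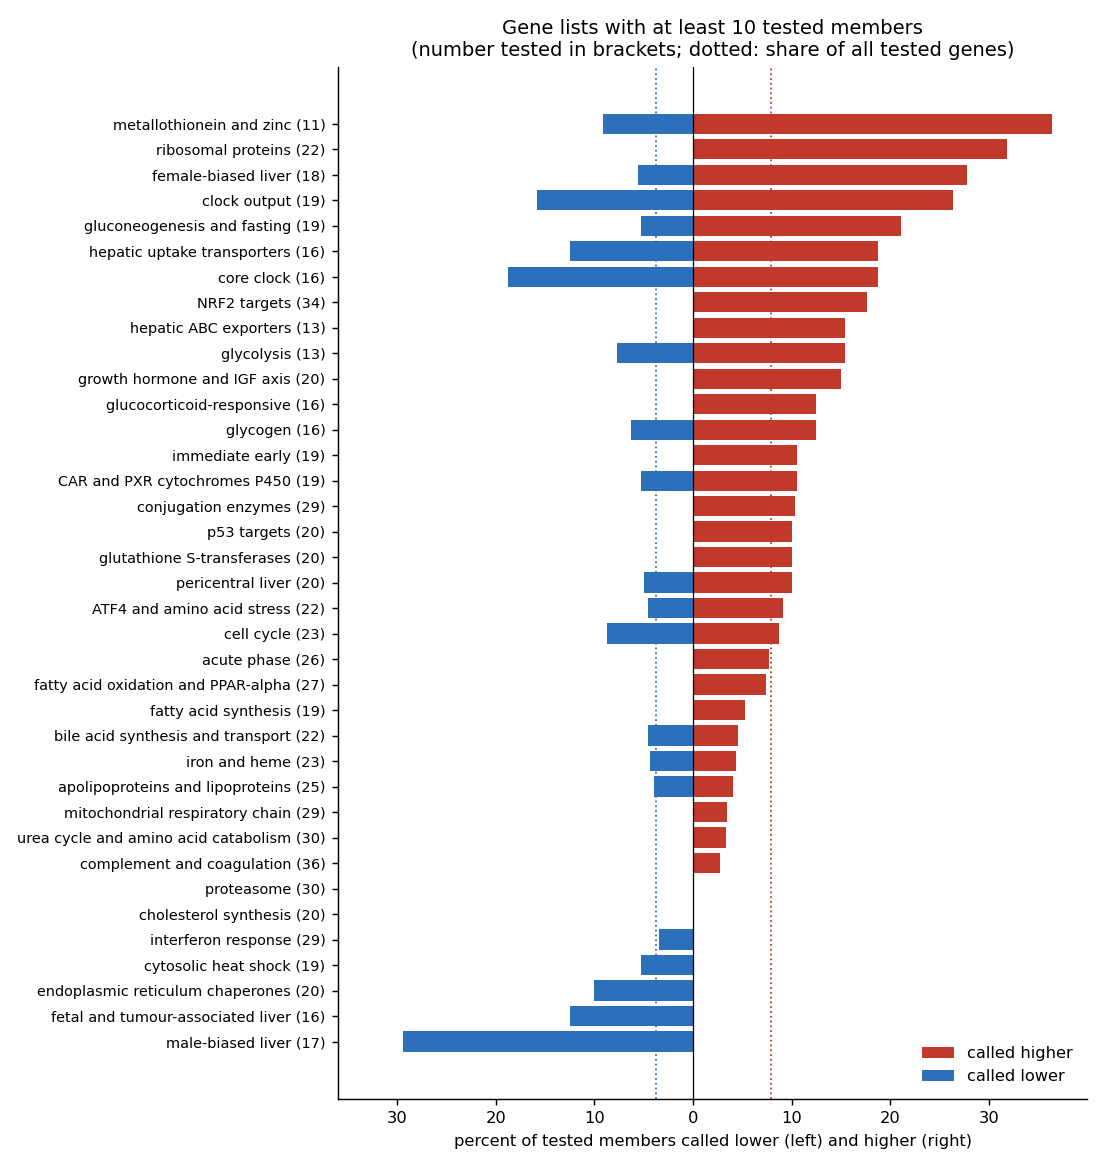
Percent of the tested members of each list, cell type markers aside, with at least 10 tested members that was called lower (left, blue) and higher (right, red) in N-(1-naphthyl)ethylenediamine against feed control, with dotted lines at the shares of all tested genes, 3.77% and 7.92%. Metallothionein, ribosomal protein, female-biased and clock output lists have the longest bars for rises, male-biased and core clock lists for falls.

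Markers of liver cell types were measured to check the labelled tissue, with counts beside 7.92% of all tested genes higher and 3.77% lower. Unadjusted counts are on deposited values alone, where 3004 of all 12169 genes were higher and 532 lower even after adjustment. Hepatocyte markers were at mean log2 signals of 13.57 to 13.63 in treated livers, against 13.44 to 13.59 in feed controls, and 0 of 11 passed in limma (3 at an unadjusted p under 0.05), with Alb at -0.09 ± 0.04 and Apoa1 at -0.02 ± 0.06. Macrophage markers fell in 1 of 19 cases, Ccr2, a receptor of recruited monocytes, at -0.77 ± 0.17, with list means of 7.23 to 7.53 in treated livers, against 7.08 to 7.57 in feed controls. Stellate cell and matrix markers fell in 2 of 22 cases, Col3a1, a fibrillar collagen, at -0.87 ± 0.26 and Pdgfrb at -0.58 ± 0.15 (0.29 on its other probe set), with list means of 6.53 to 6.65 in treated livers, against 6.55 to 6.89 in feed controls. Endothelial markers rose in 1 of 16 cases (Cdh5, 0.33 ± 0.15). Of the 4 duct markers measured Sox9 fell, and list means were 4.64 to 4.91 in treated livers, against 4.99 to 5.23 in feed controls. Erythroid genes rose in 2 of 5 cases, Alas2, of heme synthesis in red cells, at 0.80 ± 0.23 and Klf1 at 0.57 ± 0.16, with list means of 5.79 to 6.38 in treated livers, against 5.42 to 5.51 in feed controls. Lymphocyte, neutrophil and adipocyte markers gave 0 calls of 10, 6 and 5 in limma (2, 0 and 2 at an unadjusted p under 0.05), with Ighm at -0.68 ± 0.22, Ptprc at 0.15 ± 0.17, Csf3r at -0.06 ± 0.11, S100a9 at 0.18 ± 0.43, Fabp4 at -0.44 ± 0.22 and Lpl at 0.86 ± 0.31. Cela1, an elastase of the pancreas list, fell by 1.07, with list means of 6.19 to 6.45 in treated livers, against 6.59 to 6.67 in feed controls. The part of these cells in other results was not tested.

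The 20 genes that kept their call with the integrity number and also with the beta-actin difference included Cyp1a2 and the carriers Slc25a51 and Nipal1. Slc25a51, the mitochondrial NAD transporter, read 9.50, 9.50 and 9.54 in treated livers, against 8.26, 8.30 and 8.25 in feed controls. Arrays of either group were nearly equal, and the rise of 1.09 ± 0.13 (2.12-fold, adjusted p = 5.99e-05) passed on all 3 of its probe sets. Nipal1, a magnesium transporter, rose by 1.64 ± 0.17, Zfp395, a zinc finger protein, by 1.46 ± 0.18 and Cers6, a ceramide synthase, by 1.31 ± 0.18. Csdc2, an RNA-binding cold shock protein, read 5.28, 5.60 and 5.68 in treated livers, against 7.44, 6.99 and 8.42 in feed controls, and fell by 2.25 (4.77-fold lower, standard error 0.25, adjusted p = 9.59e-05). The other 14 were chosen after their values were seen. Rises among them were Bid, a death-promoting BCL2 relative, at 1.05 ± 0.13, Rasgef1b at 0.99 ± 0.14, Pspc1 at 0.93 ± 0.24, Aldoc, an aldolase, at 0.79 ± 0.11, Hexa, a lysosomal hexosaminidase, at 0.73 ± 0.10, Tmed8 at least 0.47, Mdn1, a ribosome assembly factor, at 0.63 ± 0.16 and Ptprg at 0.59 ± 0.10. Of the 2 probe sets of Bid only the 1 used lay in that direction relative to the median gene. Falls were H2-T18 at -1.16 ± 0.16, Tmem262 at -1.02 ± 0.11, Aebp1 at -1.01 ± 0.13, H2-Ea, an antigen-presenting chain, at -0.96 ± 0.11, Ccdc69 at -0.87 ± 0.13 and Doc2a with a bound of -0.63.

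Most of these 20 did not set N-(1-naphthyl)ethylenediamine apart from the other feed chemicals, which share the feed control. Only Nipal1, Rasgef1b, Slc25a51 and Zfp395 were called against the mean of the other feed chemicals, all higher. The others, with Cyp1a2 among them (difference 0.11), were not called there. Csdc2 averaged 5.52 ± 0.21 with N-(1-naphthyl)ethylenediamine, 5.62 with 1,5-naphthalenediamine and 5.88 with pentachloronitrobenzene, against 7.62 ± 0.73 in feed controls (SD, n = 3). Its difference from the mean of the other feed chemicals was -0.25, with an interval of 2 standard errors from -0.67 to 0.18. For Slc25a51 the means were 8.66 with 1,5-naphthalenediamine and 8.53 with pentachloronitrobenzene, and the difference from their mean was 0.90 ± 0.11 (adjusted p = 0.000152). In the corn oil control, set against the same feed control arrays, Bid, Cers6 and Nipal1 were higher by 1.03, 0.97 and 1.49 (standard errors 0.13, 0.18 and 0.17). In that comparison of untreated groups 7 genes (0.0575%) were higher and 0 lower in limma, and 1152 had an unadjusted p under 0.05. Against the corn oil control, N-(1-naphthyl)ethylenediamine had 608 genes (5%) higher and 255 (2.1%) lower. Cyp1a2 was higher there too (1.06, adjusted p = 0.000181), as were Slc25a51 (0.91) and Zfp395 (0.79), and Csdc2 was lower (-1.88).

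Among the remaining large changes, rises included Mtm1, a lipid phosphatase, and Slc16a5, a monocarboxylate carrier, both at 1.46, with standard errors of 0.37 and 0.27. The kinase gene Sbk1 rose by 1.37 ± 0.28 and 1810053B23Rik by at least 1.00. Gprin3, a G protein regulated neurite protein, read 5.63, 4.18 and 5.76 in treated livers, against 7.52, 7.87 and 7.65 in feed controls, and fell by 2.64 (standard error 0.53). Its call held with the integrity number in the model (adjusted p = 0.023) but not with the beta-actin difference, where the change was -2.03 (adjusted p = 0.214). Pik3cd, a lipid kinase of white blood cells, fell by 1.95, Dnase2a, a lysosomal nuclease, by 1.79, Chic1 by 1.68, Dennd6b by 1.64, Tspyl4 by 1.61, Aif1l by 1.61, Chka, choline kinase, by 1.58, Csad, of taurine synthesis, by 1.56, Lgalsl by 1.45 and Nrip2 by 1.40. In Aif1l, Dennd6b, Nrip2 and Pik3cd feed control 29 lay at least 1 log2 unit above the other feed controls. Chic1 kept its call in 0 of 6 leave-one-out fits.

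Genes were then asked whether N-(1-naphthyl)ethylenediamine differed from the mean of the other feed chemicals, a contrast that does not use the feed control. It mixes doses, since pentachloronitrobenzene was fed at 8187 ppm. In this contrast 203 genes (1.67%) were higher and 317 (2.6%) lower. Of the 77 genes named in the text that differed in it, 26 kept that call with the integrity number in the model and 30 with the beta-actin difference. Among genes also called against the feed control, the strongest by t statistic were Rdh11, Tubb2a, Txnip, Mmd2, 9130409I23Rik, Slc25a51, Tfpi2, Xaf1, Insig2 and Rnf145. Rdh11, a retinol dehydrogenase, read 7.63, 7.44 and 7.56 with N-(1-naphthyl)ethylenediamine and averaged 9.04 and 9.15 with 1,5-naphthalenediamine and pentachloronitrobenzene, a difference of -1.57 ± 0.11 (adjusted p = 1.29e-07). Against the feed control it fell by 0.64. Tubb2a, a beta tubulin, read 9.09, 8.66 and 8.81 with N-(1-naphthyl)ethylenediamine, against 10.48, 10.30 and 10.02 in feed controls, and averaged 11.30 with 1,5-naphthalenediamine (difference from the other feed chemicals -2.16 ± 0.24). Txnip was higher than with the other chemicals by 1.74 ± 0.20 and Mmd2 by 1.72 ± 0.21, on means of 8.73 and 6.88 with 1,5-naphthalenediamine. 9130409I23Rik differed by -1.82 ± 0.22 although it rose against the feed control by 1.13, and Tfpi2, a protease inhibitor, differed by -0.82 ± 0.11. Rnf145, a ubiquitin ligase of sterol control, was higher by 0.76 ± 0.11.

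Lists were counted in the same contrast, where 1.67% of all tested genes were higher and 2.6% lower. Of the NRF2 targets 22 of 34 were lower with N-(1-naphthyl)ethylenediamine than the mean of the other feed chemicals and none was higher. Cholesterol synthesis genes were lower in 11 of 20 cases. Sqle, squalene epoxidase, chosen after its values were seen, read 7.44, 6.96 and 7.44 with N-(1-naphthyl)ethylenediamine, averaged 8.68 with 1,5-naphthalenediamine, 9.03 with pentachloronitrobenzene and 8.42 in corn oil controls, and read 7.27, 6.99 and 7.51 in feed controls. Its difference from the other feed chemicals was -1.60 ± 0.19 (adjusted p = 0.000107), and both N-(1-naphthyl)ethylenediamine and the feed control lay below the corn oil control. Idi1, Cyp51 and Fdps, of the same pathway and likewise chosen, were lower by 1.16, 0.72 and 0.89. Interferon genes were lower in 11 of 29 cases, where Ifit1 and Oas1a, chosen after their values were seen, averaged 8.69 and 8.57 with pentachloronitrobenzene and 5.44 and 5.86 with 1,5-naphthalenediamine, so the contrast rests on 1 chemical. Complement and coagulation genes were higher in 7 of 36 cases than with the other feed chemicals. They were higher in 17 of 36 cases than with 1,5-naphthalenediamine alone, a contrast in which 1.93% of all tested genes were higher. Clock output genes were higher in 6 and lower in 4 of 19 cases. Ppp1r3g was higher by 3.35 ± 0.58, Dbp by 4.13 ± 1.13 and Per3 by 1.36 ± 0.25, whereas Arntl was lower by 1.98 and Ppp1r3c by 1.45. Serpina12 was lower by 2.32 than the mean of the other feed chemicals, and its means of 5.92 with 1,5-naphthalenediamine and 9.22 with pentachloronitrobenzene lay on either side. With 1,5-naphthalenediamine alone its difference was -0.65, with an interval of 2 standard errors from -1.40 to 0.10. Cyp3a44 had the same arrangement, with means of 8.32 and 10.07.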

How the data were processed

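Liver RNA of 18 female mice, 3 in each of 6 groups, was hybridised to Affymetrix mouse oligonucleotide arrays. Per the labels' protocols, tissue was kept in RNAlater, RNA was extracted with Trizol and a column kit, and 10 ug was labelled with biotin. The deposited values are log2 signals of 45101 probe sets in the authors' table. Background correction, normalization and summary were not given in the sources used here. Probe sets were named from the platform annotation, and symbols were updated by Entrez identifier to RefSeq on GRCm38.p6 for 34741. Of the probe sets, 34945 had 1 gene, 932 several and 9160 none. Probe sets with 1 gene that lay above the array median on at least 3 of 18 arrays were kept (20712), and the one with the highest mean stood for each of 12169 genes.

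The fit used limma 3.58.1 (R 4.3.3) and a mean per group across the 18 arrays (lmFit and eBayes with a trend, 12 residual degrees of freedom), on the deposited values and after quantile normalization, with Benjamini-Hochberg adjustment over all genes. A call needed an adjusted p under 0.05 in both fits, with 1 sign. On simulated data for this comparison, 92% of changes of 1 log2 unit and 100% of changes of 2 were recovered among 12169 genes, with 7 false calls. The simulation drew noise independently for each gene and held no RNA quality difference and no shift of the median gene. These rates therefore do not give the error rate of the real comparison. The labels name animals, so groups were set by the labels and no pairing was used. The 48 gene lists, of which 10 hold cell type markers, and the members were chosen with earlier results of these data known. Genes named were the 20 largest rises and 20 largest falls with separate arrays, up to 5 called members of each list, all core clock and output genes, 2 bright members of lists without a call, and the 10 called genes that differed most from the other feed chemicals. Any other gene is said to be chosen after its values were seen. Covariates, array sets, scalings, filters, probe set rules and thresholds were varied as alternatives. Python 3.11.15, pandas 2.3.3 and matplotlib 3.10.9 were used.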

Additional observations from a re-analysis of the deposited data

How the results depend on the processing

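Scaling moved the balance of calls. The 964 higher and 459 lower genes became 3004 and 532 on deposited values only, 966 and 790 on quantile-normalized values only, and 668 and 1836 after centring on the median. Taking the probe set with the largest variance gave 737 lower. In the fits with a covariate, higher and lower genes numbered 46 and 49 with the RNA integrity number, 18 and 8 with the beta-actin difference, 372 and 284 with the clock gene index, and 175 and 159 with the 18S signal, a covariate added after seeing the data. Without the 5 arrays highest in 18S signal they numbered 89 and 40, with 1 treated array, assumed to vary like the other groups. They were 249 and 141 with only the 6 arrays compared, 608 and 255 with the corn oil control in place of the feed control, 188 and 134 at an adjusted p under 0.01, and 49 and 57 at a change of at least 1 log2 unit. Leaving out 1 array gave 352 to 825 higher and 218 to 433 lower, the lowest without treated animal 12 (352 and 218). Higher genes also fell to 553 without treated animal 15 and 607 without feed control 27, and lower genes to 285 without treated animal 15.

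Genes that differed from the other feed chemicals (520) numbered 812 on quantile-normalized values only, 886 with array weights, 74, 111, 36 and 189 with the integrity number, the beta-actin difference, the clock gene index and the 18S signal, 33 without the arrays highest in 18S signal, 154 at an adjusted p under 0.01, 76 at 1 log2 unit, and 216 to 745 when 1 array was left out, lowest without treated animal 15. Genes that differed between the naphthylamines (619) numbered 90, 130 and 407 with the integrity number, the clock gene index and the 18S signal, 91 without the arrays highest in 18S signal, 217 at an adjusted p under 0.01, 94 at 1 log2 unit, and 276 to 829 when 1 array was left out, lowest without 1,5-naphthalenediamine animal 5. The arrays left out in turn for these contrasts were those of N-(1-naphthyl)ethylenediamine, 1,5-naphthalenediamine and the feed control. Pentachloronitrobenzene arrays were not left out, and the feed control is not part of either contrast. Of single genes, Acaca turned to -0.64 with the most variable probe set and -0.0029 with the median over probe sets. Csnk1d turned to 0.34 and 0.0455 with those rules and 0.0158 without shared-sequence probe sets, Pfkfb3 to 0.83, 0.13 and 0.82 in the same order, Pdgfrb to 0.29 with the most variable probe set and Slc39a14 to -0.17 with the median. Dbp, itself in the clock gene index, had -0.39 with that index as a covariate. The cause of these shifts was not tested. No paired analysis was possible because the numbers in the labels name animals and no number occurs in more than 1 group. Signals near background limit what can be said of genes with group means under 4.25.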
